A study of Mus musculus with 3 samples.

Results

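The autophagy machinery described here comprised 40 genes, taken by symbol from the gene tables without regard to their values, out of 55536 genes in all and 22028 protein-coding genes. They were measured by total RNA-seq after ribosomal RNA depletion in the cytosolic fraction of bone marrow-derived macrophages, primary phagocytes grown from the marrow of C57BL/6J mice. All 3 libraries belonged to 1 group: per the labels, the cells were given lipid A at 100 ng/ml for 12 h, kept for 12 h after its removal, and taken at 0 min of a further exposure to 100 ng/ml. Lipid A is the part of bacterial lipopolysaccharide that Toll-like receptor 4 senses. The libraries are numbered as biological replicates 1, 2 and 3 under the same donor identifier, the age and sex of the mice are not recorded, and nothing says that the cultures came from separate animals, so any spread or p-value covers these libraries and may be technical. No untreated group was analysed here, so the levels carry no effect of lipid A.

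Autophagy encloses part of the cytoplasm in a double membrane, the autophagosome, and delivers it to the lysosome. A kinase complex starts the process, a lipid kinase complex marks the membrane with phosphatidylinositol 3-phosphate, lipid transfer proteins enlarge it, and a pair of ubiquitin-like conjugation systems attach Atg8 proteins to it, which cargo receptors then bind. In macrophages the same conjugation machinery also acts on phagosomes, and autophagy removes intracellular bacteria and damaged mitochondria.

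The Atg8 proteins are made with a short tail that Atg4 proteases cut off behind a glycine, which is then joined to phosphatidylethanolamine. Because the family is the most abundant set of messenger RNAs among these genes, the ends of the coding sequences of its Gabarap branch are shown, read 5′ to 3′ from GENCODE M21 transcripts on GRCm38 up to and with the stop codon. Capitals mark the last glycine codon.
Gabarap (chr11:69994501-69994524, plus strand): gatgaaagcgtctatGGTctgtga
Gabarapl1 (chr6:129541144-129541167, plus strand): gatgaaagtgtctatGGAaaatga
Gabarapl2 (chr8:111952382-111952405, plus strand): ggagagaacacttttGGCttctga
In Gabarap, Gabarapl1 and Gabarapl2 the glycine is codon 116 of 117, with 1 codon behind it. Across the whole coding sequence Gabarap and Gabarapl1 were identical at 74.6% of aligned positions, with a longest identical run of 17 bases, whereas Gabarap and Gabarapl2 were identical at 62.8%, with a longest run of 10 bases.

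Replicates 1, 2 and 3 held 28981178, 53119941 and 46783133 expected counts in their gene rows, of which the 40 genes held 0.249 ± 0.0032% (SD, n = 3). Levels are in TPM, which is normalised for transcript length and for the total of a library, and the small RNA 7SL took 56.9%, 65.3% and 52.5% of that total. Replicate 3 stood apart. The nuclear-retained RNA Malat1 held 157.7, 91.0 and 1343 TPM in replicates 1, 2 and 3, and Neat1, which builds nuclear paraspeckles, held 16.8, 10.4 and 91.4 TPM. Of 12 macrophage markers, 12 reached 10 TPM in every library, while among 40 markers of other cell types 4 did so at 1 TPM: S100a8, S100a9, Cd79b and Batf3. Their summed TPM ran from 5.36 to 10.5 for 8 neutrophil markers, from 1.08 to 2.50 for 5 B cell markers and from 1.56 to 3.39 for 5 dendritic cell markers, with the defining genes Ly6g and Cd79a at 0 in every library. The part of other cells and of nuclear RNA in the levels below was not tested.

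Nearly the whole machinery was present. Of the 40 genes, 39 reached 1 TPM in every library, against 41.2% of protein-coding genes and 17.1% of all genes. The exception was Atg16l2, and this rested on the estimate used: with the authors' posterior mean TPM all 40 genes passed, and the deposited interval of Atg16l2 in replicate 1 ran from 1.23 to 2.87 TPM, above its deposited TPM of 0.55. With TPM made directly from reads 37 passed, as Wipi1 and Map1lc3a also fell short. On protein-coding transcripts only, an alternative chosen after seeing the data, 38 passed, as Atg4d also fell short. By deposited TPM the number was 26 at 5 TPM and 13 at 10 TPM. The median over the 40 genes was 7.58 ± 0.82 TPM, beside 8.20 ± 0.81 TPM over the 9407 protein-coding genes that averaged at least 1 TPM (SD, n = 3 each). The median of the 40 genes was the lower in every library, at 7.31, 6.92 and 8.50 TPM in replicates 1, 2 and 3, against 7.99, 7.51 and 9.09 TPM. The range of deposited TPM ran 275-fold, from Gabarap at 244.5 ± 4.64 TPM to Atg16l2 at 0.89 ± 0.35 TPM. In the order of mean levels, 7 of the 39 neighbouring pairs had ranges that did not overlap: Gabarap above Vmp1, Tax1bp1 above Becn1, Tecpr1 above Map1lc3b, Atg5 above Atg12, Atg12 above Optn, Atg2a above Wipi1 and Wipi1 above Atg16l2. All other neighbours overlapped.

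**Figure D1:**
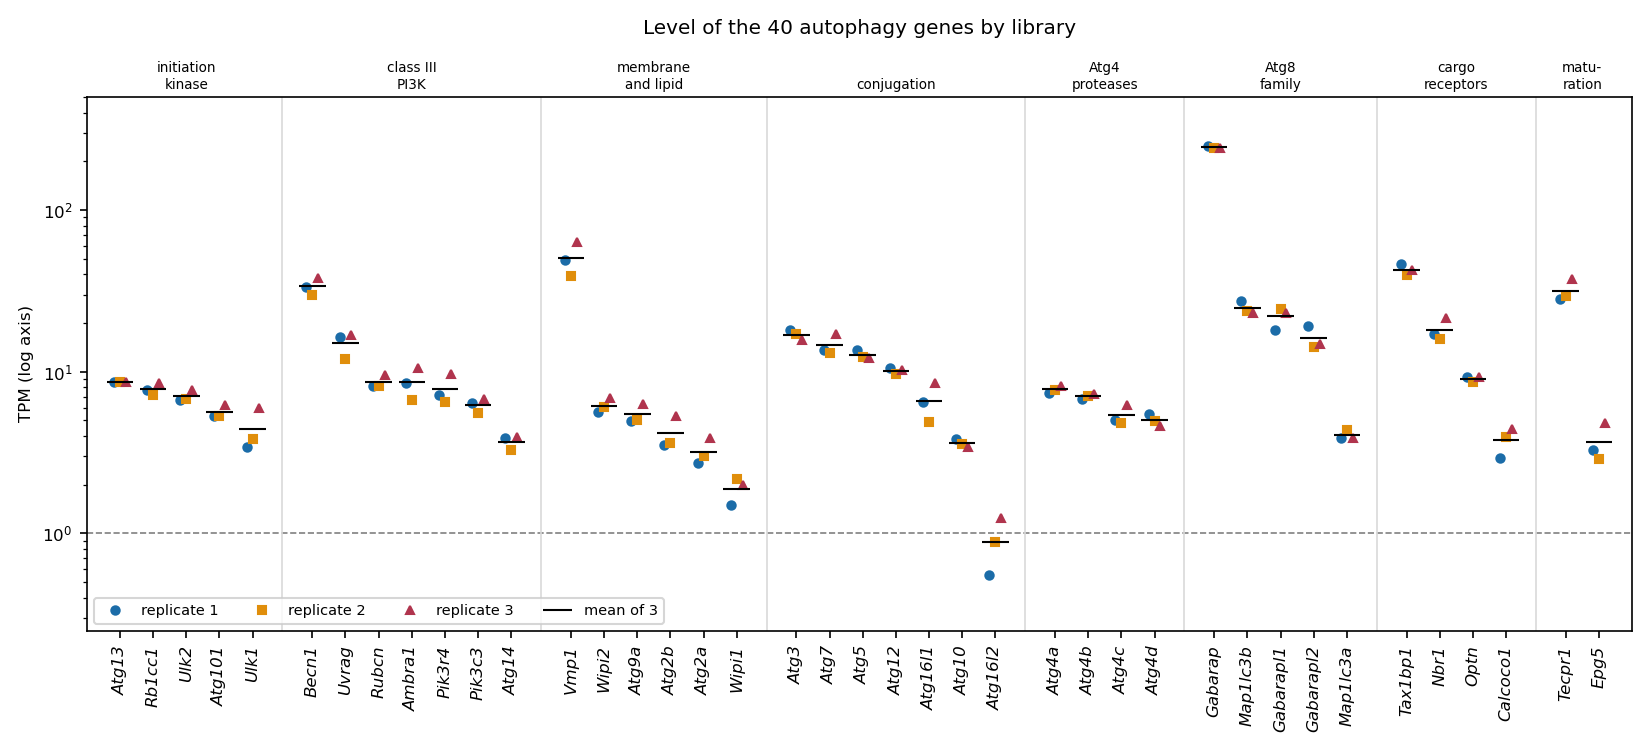
TPM (log axis) of each of the 40 genes, grouped by role along the horizontal axis and by falling mean within a role. Symbols are the 3 libraries, the short bar is their mean, and the dashed line is 1 TPM. Gabarap stands alone near 244.5 TPM, and Atg16l2 is the gene that crosses the dashed line.

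The initiation kinase complex, which senses nutrient and energy state, had all of its 5 genes between 4.40 and 8.59 TPM. Atg13, the adaptor that holds the kinase in the complex, had 8.59, 8.58 and 8.59 TPM in replicates 1, 2 and 3, the smallest relative spread in TPM of the 40 genes, though its scaled counts differed 1.24-fold between libraries. The scaffold gene Rb1cc1 stood at 7.77 ± 0.65 TPM and Atg101, which stabilises Atg13, at 5.64 ± 0.50 TPM (SD, n = 3). Of the kinase genes, Ulk1 had 3.40, 3.81 and 5.98 TPM and Ulk2 had 6.72, 6.81 and 7.71 TPM. Ulk1 was below Ulk2 in every library, and the ranges did not overlap. The log2 ratio of Ulk1 over Ulk2 was -0.73 ± 0.32 (SD, n = 3, exact two-sided sign-flip permutation test, p = 0.25). With 3 libraries 0.25 is the smallest p this test can give, so for the 16 gene pairs compared here it cannot pass 0.05, and the pairs are read by their order in the libraries.

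The class III phosphatidylinositol 3-kinase complexes were led by Becn1, the scaffold that nucleates them, at 33.6, 29.9 and 38.2 TPM (chromosome 11, 101285952 to 101302286, minus strand), a level that rested mainly on models not annotated as coding, as given with the transcripts below. The catalytic subunit gene Pik3c3 had 6.25 ± 0.64 TPM and its regulatory partner Pik3r4 7.80 ± 1.66 TPM (SD, n = 3). Atg14 and Uvrag encode alternative subunits that direct the kinase to forming autophagosomes and to endosomes. Atg14 had 3.87, 3.26 and 3.97 TPM and Uvrag 16.4, 12.1 and 16.8 TPM. Uvrag was the higher in every library, with a log2 ratio of Atg14 over Uvrag of -2.02 ± 0.11 (SD, n = 3, exact sign-flip permutation test, p = 0.25). Rubcn, which binds the Uvrag complex, inhibits it and takes part in LC3-associated phagocytosis, had 8.17, 8.11 and 9.57 TPM and a log2 ratio over Uvrag of -0.79 ± 0.22 (SD, n = 3). With read-derived TPM, made without the alignments, the log2 ratio over Uvrag was -1.52 for Rubcn and -2.63 for Atg14. Coding transcripts then took 29.4% of Uvrag's TPM, against 88.8% for Rubcn and 98.2% for Atg14. These wider ratios thus do not compare coding messenger RNA alone. By deposited TPM on protein-coding transcripts only, the log2 ratio over Uvrag was -1.10 for Rubcn and -1.93 for Atg14. That alternative was chosen after seeing the data. Ambra1, a regulator that binds Becn1, had 8.60 ± 1.95 TPM (SD, n = 3).

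Among genes for membrane delivery and lipid transfer, Vmp1 was far above the rest. Vmp1 encodes a scramblase of the endoplasmic reticulum needed for autophagosome formation and had 49.4, 39.0 and 63.0 TPM (chromosome 11, 86583865 to 86683836, minus strand). Atg9a, the scramblase carried by vesicles that seed the membrane, had 5.44 ± 0.77 TPM (SD, n = 3). The lipid transfer genes Atg2a and Atg2b had 2.71, 3.01 and 3.87 TPM and 3.52, 3.61 and 5.35 TPM. Atg2a was the lower within each library (log2 ratio of Atg2a over Atg2b -0.37 ± 0.10, SD, n = 3), although the ranges overlapped. Wipi1 and Wipi2 encode proteins that bind phosphatidylinositol 3-phosphate, and Wipi2 recruits Atg16l1. Wipi1 had 1.5, 2.16 and 2.00 TPM and Wipi2 had 5.63, 6.01 and 6.88 TPM. The ranges were apart, and the log2 ratio of Wipi1 over Wipi2 was -1.72 ± 0.22 (SD, n = 3).

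The conjugation enzymes fell into higher and lower partners. Atg7, the activating enzyme shared by both systems, had 14.6 ± 2.17 TPM (SD, n = 3). Atg3, which transfers Atg8 proteins to lipid, had 18.1, 17.0 and 15.8 TPM, and Atg10, which transfers Atg12 to Atg5, had 3.81, 3.59 and 3.44 TPM. Atg3 was the higher in every library, by a log2 ratio over Atg10 of 2.23 ± 0.030 (SD, n = 3), among the narrowest spreads of the 16 pairs. Atg12 had 10.6, 9.63 and 10.2 TPM and Atg5, its conjugation partner, had 13.7, 12.3 and 12.2 TPM. Atg12 was thus below Atg5 in every library, with a log2 ratio of -0.33 ± 0.057 (SD, n = 3). Atg16l1, which carries the Atg12-Atg5 conjugate to the membrane, had 6.46, 4.91 and 8.54 TPM, and its relative Atg16l2 had 0.55, 0.88 and 1.24 TPM. Atg16l1 was the higher by a log2 ratio over Atg16l2 of 2.94 ± 0.55 (SD, n = 3), or 7.67-fold, with no overlap. The size of this log2 ratio depended on the values used: it was 1.81 with posterior mean TPM, 2.30 with read-derived TPM, 2.00 with a pseudocount of 1 and 3.53 on protein-coding transcripts only (an alternative chosen after seeing the data), with Atg16l1 the higher in each.

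The 4 Atg4 protease genes, which trim Atg8 proteins and release them from lipid, had similar levels. Atg4a had 7.40, 7.70 and 8.21 TPM, and Atg4b, whose product is the most active on LC3 proteins, had 6.81, 7.04 and 7.32 TPM. Atg4c had 5.05, 4.81 and 6.26 TPM and Atg4d had 5.44, 4.99 and 4.60 TPM. As shares of the family's TPM these were 30.8 ± 0.75% for Atg4a, 28.0 ± 0.60% for Atg4b, 21.3 ± 2.18% for Atg4c and 19.9 ± 2.32% for Atg4d (SD, n = 3). Atg4b was below Atg4a in every library by a log2 ratio of -0.14 ± 0.024, and above Atg4c by 0.40 ± 0.16 and Atg4d by 0.50 ± 0.17 (SD, n = 3). The order of Atg4b and Atg4a depended on the values used. With the authors' posterior mean TPM the log2 ratio of Atg4b over Atg4a was 0.0060, and its sign differed between libraries. With the TPM made directly from reads it was 0.53, with Atg4b the higher in every library. On protein-coding transcripts alone, an alternative chosen after seeing the data, the log2 ratio of Atg4b over Atg4d was 3.45 and that of Atg4b over Atg4c was 0.083, with Atg4c the higher in replicate 3 (5.80 TPM, against 5.30 TPM for Atg4b). With read-derived TPM Atg4b over Atg4c was 1.02.

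The Atg8 family held 44.6 ± 2.92% of the summed TPM of the 40 genes (SD, n = 3), and Gabarap held most of the family. Gabarap (chromosome 11, 69991143 to 69994951, plus strand) had 249.9, 242.4 and 241.4 TPM, which placed it at the 99.4th percentile of protein-coding genes. Map1lc3b, the form used most often as an autophagosome marker, had 27.5, 23.7 and 23.2 TPM. Gabarapl1 had 18.1, 24.6 and 23.2 TPM and Gabarapl2 had 19.1, 14.2 and 14.9 TPM. Map1lc3a was the lowest with 3.88, 4.39 and 3.87 TPM. Gabarap was apart from all others, and the ranges of Map1lc3b and Gabarapl1 overlapped, as did those of Gabarapl1 and Gabarapl2.

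Gabarap made up 78.5 ± 0.19% of the family's summed TPM, against 7.95 ± 0.59% for Map1lc3b, 7.07 ± 1.22% for Gabarapl1, 5.15 ± 0.76% for Gabarapl2 and 1.30 ± 0.11% for Map1lc3a (SD, n = 3 each). The log2 ratio of Gabarap over Map1lc3b was 3.31 ± 0.11, or 9.90-fold, over Gabarapl1 3.49 ± 0.26 and over Gabarapl2 3.94 ± 0.21 (SD, n = 3, p = 0.25 each by the exact sign-flip permutation test). Map1lc3b exceeded Map1lc3a by a log2 ratio of 2.61 ± 0.20 (SD, n = 3). Gabarapl2 over Gabarapl1 was the exception among the 16 pairs: it was 0.081 in replicate 1 but -0.80 and -0.64 in replicates 2 and 3, so their order did not hold. On protein-coding transcripts only, Gabarapl2 was below Gabarapl1 in every library (log2 ratio -0.73), and Atg4b over Atg4c was the pair whose order turned. With TPM made directly from reads Gabarap stayed first, but its log2 ratio over Map1lc3b was 2.67. The messenger RNAs are short, so by expected counts, which are not set per length, the family took 22.3 ± 1.72% of the reads on the 40 genes (SD, n = 3).

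**Figure D2:**
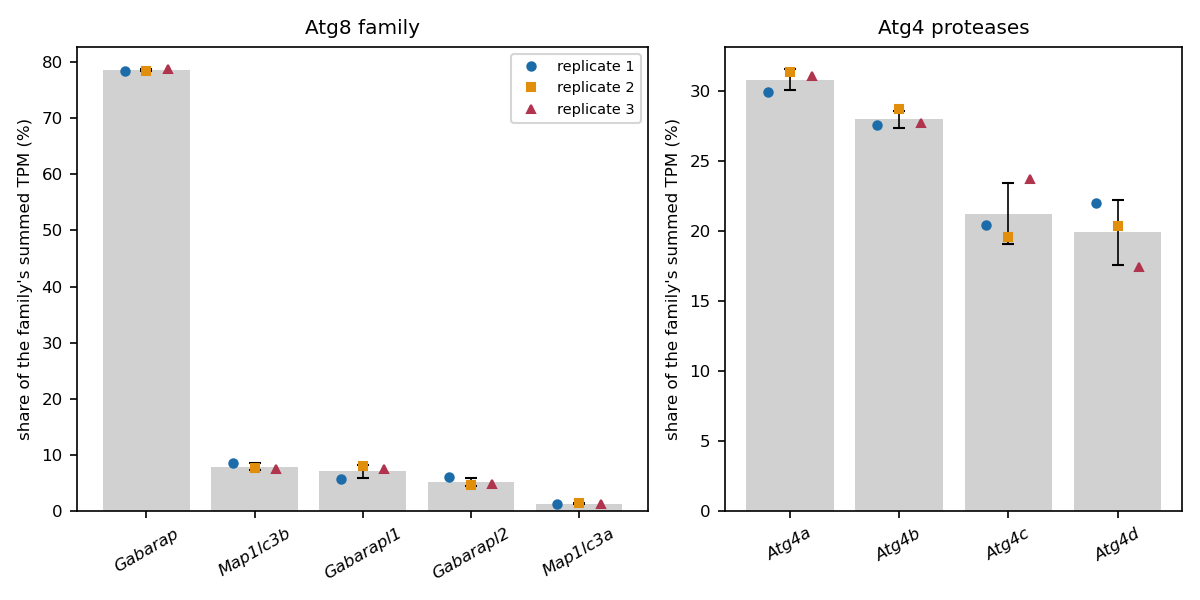
Share of the summed TPM (%) held by each gene of the Atg8 family (left) and of the Atg4 proteases (right). Bars are means over 3 libraries, whiskers are SD, symbols are libraries, and both axes start at 0. Gabarap takes 78.5% of its family, whereas the Atg4 genes lie between 19.9% and 30.8%.

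**Figure D3:**
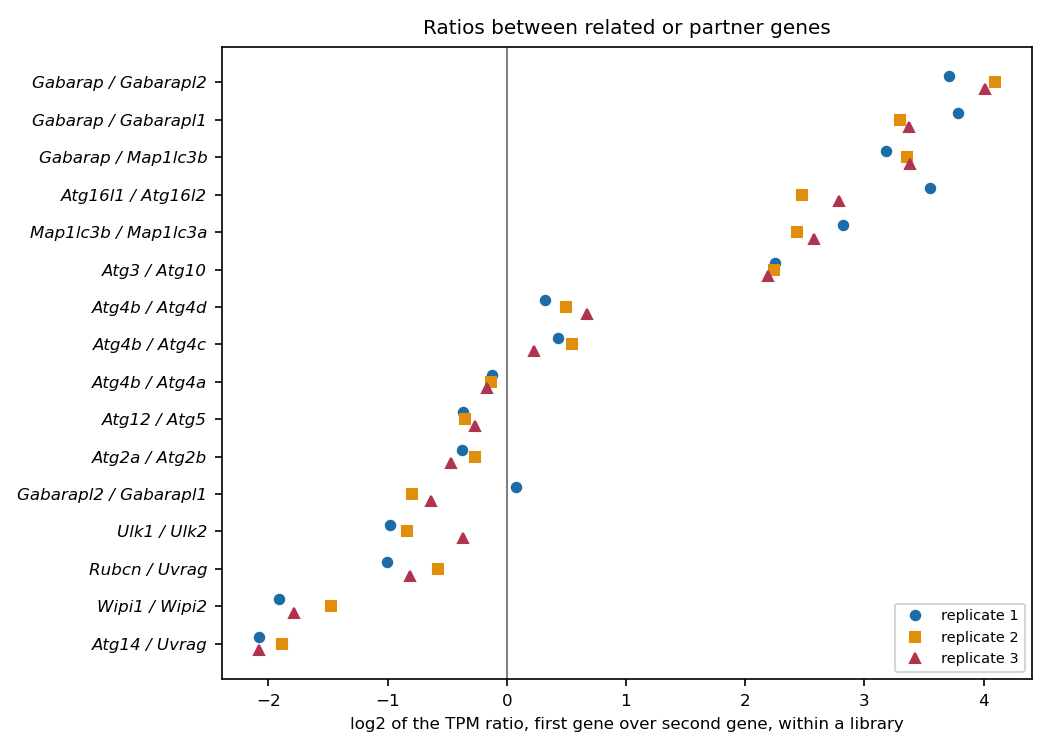
log2 of the TPM ratio within each library for the 16 gene pairs, first gene over second gene, with a symbol per library and a line at 0. In 15 pairs all 3 libraries lie on the same side of the line, and Gabarapl2 over Gabarapl1 crosses it.

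Cargo receptors link ubiquitin or organelle tags to Atg8 proteins. Tax1bp1, which also restrains inflammatory signalling with the enzyme A20, led them at 46.0, 39.4 and 42.6 TPM (chromosome 6, 52713729 to 52766780, plus strand). Nbr1 had 18.2 ± 2.97 TPM and Optn, a receptor for bacteria and mitochondria, 9.07 ± 0.39 TPM (SD, n = 3). Calcoco1, a receptor for the endoplasmic reticulum and Golgi, was lowest at 2.92, 3.95 and 4.44 TPM. Tax1bp1 was above Nbr1 and Nbr1 above Optn in every library. The maturation factors differed in level: Tecpr1, which links autophagosomes and damaged lysosomes to the Atg5 conjugate, had 28.3, 29.6 and 37.3 TPM, and Epg5, a tether for fusion with the lysosome, had 3.30, 2.88 and 4.81 TPM.

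Genes of the pathway outside the 40 were mostly present as well, with 56 of 59 at 1 TPM or more in every library. All 15 further cargo and organelle receptors did so, led by Sqstm1, which encodes the receptor p62, at 191.4, 321.5 and 188.2 TPM, with Nufip1 the lowest at 2.21 ± 0.090 TPM (SD, n = 3). Sqstm1 was thus close to Gabarap in level and high in replicate 2. Of 11 other assembly factors 10 passed, from Sh3glb1, a membrane-bending protein that binds Uvrag, at 112.7 ± 15.8 TPM to Atg9b at 0.71 ± 0.24 TPM. All 15 genes for fusion with the lysosome passed, from the small GTPase gene Rab7 at 131.6 ± 2.25 TPM to the SNARE gene Stx17 at 3.41 ± 0.63 TPM. Of 18 genes for nutrient and transcriptional control 16 passed, from Tfe3, a transcription factor of lysosomal and autophagy genes, at 31.2 ± 2.42 TPM to the mTOR inhibitor gene Deptor at 0.86 ± 0.20 TPM (SD, n = 3 each).

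Tfe3 and its relatives bind the letters CACGTG, often as GTCACGTG. RefSeq promoters on GRCm38.p6, from 250 bases before to 50 bases after a listed start, were at hand for 33 of the 40 genes. A gene counted as matching if any of its listed promoters did, with no adjustment for the number of promoters per gene. Read on both strands, CACGTG occurred in 5 of these 33, or 15.2%: Atg3, Atg5, Atg7, Atg14 and Rubcn. The share was 8.09% over 27025 genes with a promoter of the same length. Those 27025 genes were not limited to protein-coding or expressed genes, nor matched to the 33 in base content. The longer GTCACGTG, which contains the shorter one, occurred in 3 of the 33, or 9.09%, beside 2.55% of all. These 3 stretches are shown because they are the shared letters, in capitals (for Atg14 they stand on the opposite strand); a match is a description of letters and no evidence of binding.
Atg3 (chr16:45158717-45158756, plus strand): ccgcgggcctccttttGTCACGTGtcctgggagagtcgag
Atg7 (chr6:114670946-114670985, plus strand): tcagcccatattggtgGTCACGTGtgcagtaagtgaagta
Atg14 (chr14:47568412-47568451, minus strand): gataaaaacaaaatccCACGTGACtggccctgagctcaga
The Atg7 and Atg14 stretches lie inside the annotated span of their gene, while that of Atg3 lies before it. The 3 genes had unlike levels, with means of 17.0 TPM for Atg3, 14.6 TPM for Atg7 and 3.70 TPM for Atg14.

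A gene's TPM sums all its annotated transcripts, and for most of the 40 genes these were coding. The leading transcript was annotated as protein-coding for 38 of 40 genes, against 95.2% of protein-coding genes that averaged at least 1 TPM. The median share of TPM on protein-coding transcripts was 95.8 ± 2.99%, beside 97.6 ± 2.30% over those genes (SD, n = 3 each), and 27 of the 40 had a share of 90% or more. The 2 genes whose leading transcript was not coding were Becn1 and Atg4d.

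For Becn1, the retained-intron model Becn1-211, only 487 bases long, held 13.5, 12.1 and 14.6 TPM. Becn1-201, of 2123 bases and annotated as a target of nonsense-mediated decay, held 10.8, 8.82 and 10.9 TPM. The coding model Becn1-205, of 4365 bases, held 3.69, 3.40 and 3.33 TPM. By expected counts, which do not favour short models, coding transcripts took 34.6 ± 4.74% of Becn1's reads, against 11.8% of its TPM. Summed over coding transcripts Becn1 had 3.94 ± 0.28 TPM and stood 30th of the 40, against the 4th place by all transcripts. That place hangs on the annotated class of Becn1-201, which took 44.0% of the gene's counts and 10.2 TPM on average. The exons of Becn1, taken over all its models, share 3104 bases with Cntd1 on the opposite strand, which held 0.037 TPM on average. No source used here says whether counting used the strand.

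For Atg4d, the retained-intron model Atg4d-203 held 3.16, 2.74 and 2.79 TPM and the coding model Atg4d-201 held 0.36, 0.44 and 0.81 TPM. Retained-intron models took 86.0 ± 8.25% of its TPM and 67.5 ± 11.0% of its counts, while coding models took 11.0% of its TPM and 32.2 ± 10.8% of its counts (SD, n = 3). Atg4d also shares 1405 exon bases with Kri1 on the opposite strand, which held 8.10, 9.31 and 10.9 TPM, so reads of the pair cannot be told apart without the strand. The TPM of Atg4d is therefore uncertain as a level of its coding messenger RNA.

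Other genes were mixed. Vmp1 had 56.1% of its TPM on coding transcripts, with 27.8 ± 3.57 TPM on them; the processed transcript Vmp1-206 held 9.08, 3.05 and 18.7 TPM, and the microRNA gene Mir21a, which shares 92 exon bases with Vmp1, was listed at 0. Pik3r4 had 55.1% and Rubcn 74.4% on coding models, with the rest on retained introns, but in the read-derived table these shares were 85.5% and 88.8%. Map1lc3a had 61.4%, with the rest on the processed transcript Map1lc3a-203. In Atg16l1, both leading models were coding and differed by a stretch of 57 coding bases, or 19 codons: Atg16l1-202, which lacks it, held 3.61, 3.08 and 4.23 TPM, and Atg16l1-201, which has it, 2.73, 1.72 and 2.71 TPM. The longer form made up 43.1%, 35.8% and 39.0% of the pair in replicates 1, 2 and 3. The split of Gabarap over its coding models was uncertain: Gabarap-201 held 66.9% of its TPM in the table from alignments and 92.2% in the table made directly from reads.

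**Figure D4:**
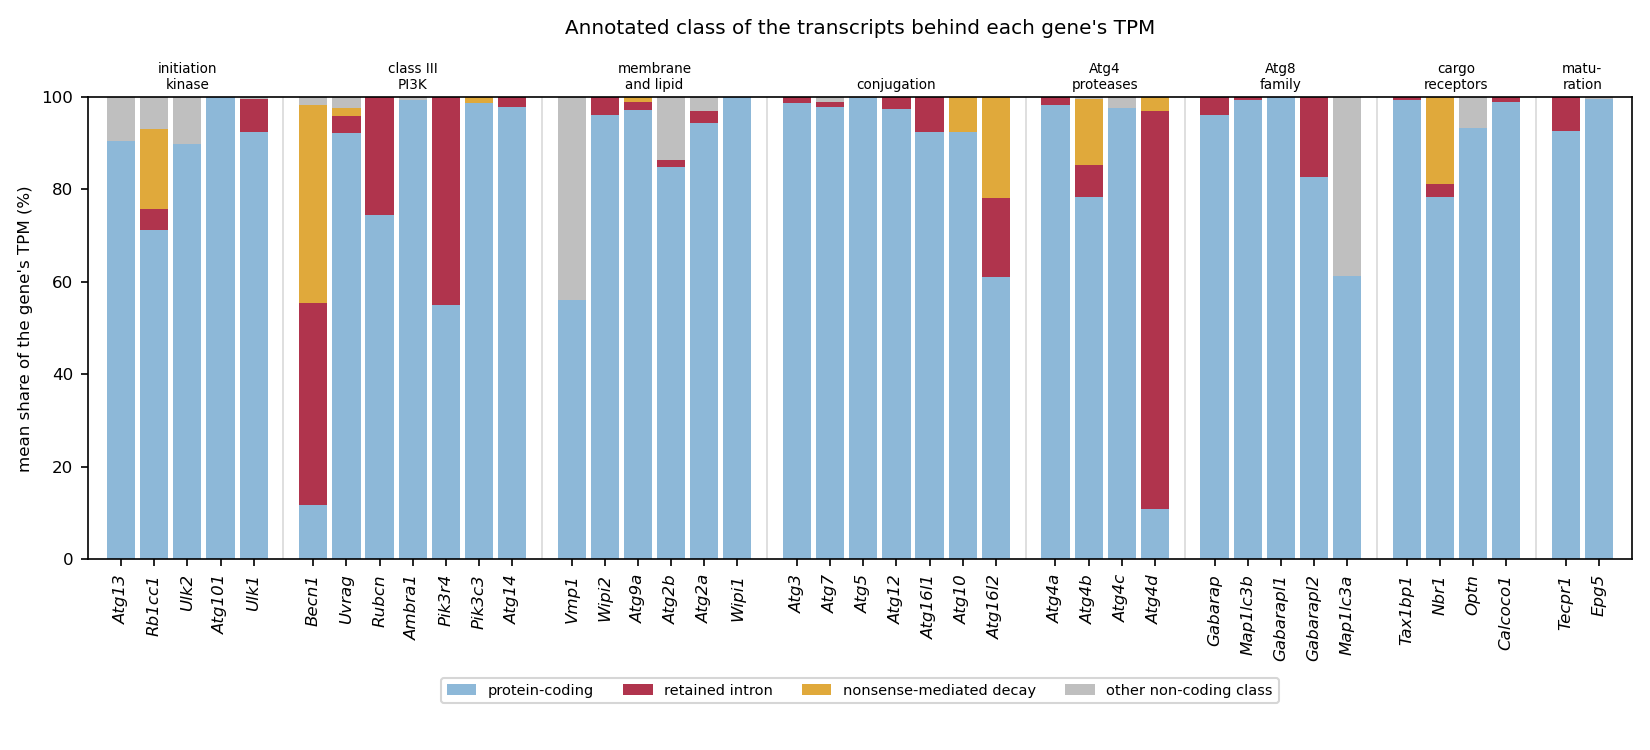
Mean share (%) of each gene's TPM, over 3 libraries, by annotated transcript class, for the 40 genes grouped by role. Becn1 and Atg4d have the smallest protein-coding share, 11.8% and 11.0%, while most other columns are almost wholly protein-coding.

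Few of the 40 genes differed between the libraries by a wide ratio. A chi-square test of homogeneity on expected counts against TMM-scaled library sizes, with Benjamini-Hochberg adjustment over 13636 genes and at least a 2-fold gap from lowest to highest library, called 1 of the 40 genes, or 2.50%, against 16.2% of all genes tested and 8.12% of the protein-coding ones. At any ratio 32 of 40 had an adjusted p under 0.05, against 75.6% of all genes tested, as counts this deep pass for small differences. The remaining 8 were Nbr1, Atg7, Pik3c3, Atg101, Atg9a, Atg4b, Atg4c and Atg4d. The median biological coefficient of variation by edgeR was 0.135 for the 40 genes, beside 0.159 for protein-coding genes and 0.177 for all genes tested. The authors' posterior SD of a gene's count, averaged over libraries, was at most 1.19% of the count, which was for Atg4d.

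The gene called was Atg16l2, with 2.51, 3.33 and 5.30 TMM-scaled CPM in replicates 1, 2 and 3, a ratio of 2.10 (adjusted p = 1.33e-09 by the chi-square test with Benjamini-Hochberg adjustment). It was highest in replicate 3, and the call rested on replicates 1 and 3: the ratio was 1.59 without replicate 1 and 1.34 without replicate 3. By counts, coding transcripts held 70.8%, 77.6% and 84.5% of Atg16l2 in replicates 1, 2 and 3. Retained-intron models held 0%, 2.94% and 5.23% of its counts. By TPM, coding transcripts held 65.5%, 65.2% and 52.8% of Atg16l2 in replicates 1, 2 and 3. Retained-intron models held 0%, 16.9% and 34.4% of its TPM. Malat1 was high in replicate 3, and the part of nuclear RNA in the result was not tested. Wipi1 followed, with 5.41, 8.47 and 6.33 scaled CPM and a ratio of 1.56, highest in replicate 2. Outside the 40, Sqstm1 and Atg9b were the 2 of 59 pathway genes called.

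Scaled counts were highest in replicate 1, 2 or 3 for 10, 19 and 11 of the 40 genes, or 25.0%, 47.5% and 27.5%, beside 33.1%, 39.2% and 27.7% of protein-coding genes. By deposited TPM the numbers were 11, 3 and 26, beside 21.9%, 11.3% and 66.8% of all genes tested. That scale raised replicate 3 over the others by a median of 0.26 log2 over all genes tested and by 0.21 over the 40 genes, so directions between libraries depend on the scaling. Scaled counts were lowest in replicate 3 for 22 of the 40 genes, or 55.0%, beside 43.2% of protein-coding genes. Those 22 included 4 of the 5 Atg8 genes, Gabarapl1 being lowest in replicate 1, and by TPM Gabarapl2 was lowest in replicate 2 instead. The 11 genes highest in replicate 3 were Vmp1, Nbr1, Atg7, Ambra1, Pik3r4, Atg16l1, Ulk1, Atg2a, Atg2b, Epg5 and Atg16l2, of which Atg16l2 alone passed a ratio of 2. Retained-intron models held a mean of 6.30%, 6.29% and 9.83% of TPM over the 40 genes in replicates 1, 2 and 3. Over protein-coding genes that averaged at least 1 TPM the means were 3.29%, 3.28% and 6.28%. Of 26 genes among the 40 with any, 20 had the highest share in replicate 3, or 76.9%. The same held for 85.8% of the protein-coding genes at that level with any.

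**Figure D5:**
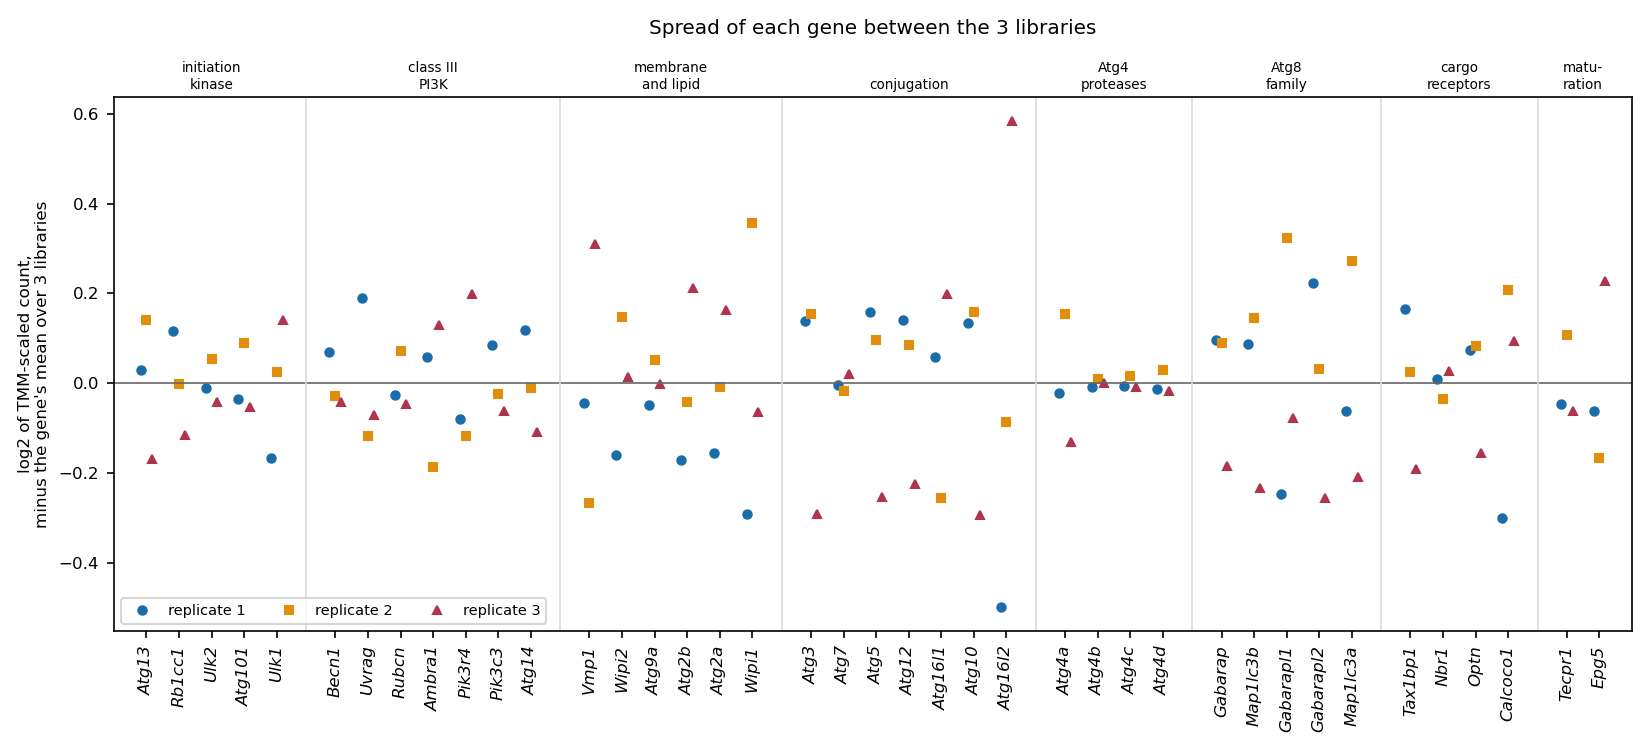
log2 of the TMM-scaled count of each gene in each library, minus the gene's mean over the 3 libraries, for the 40 genes grouped by role. Symbols are libraries. Atg16l2 is widest, with replicate 3 high and replicate 1 low, and the Atg4b, Atg4c, Atg4d and Atg7 points nearly coincide.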

How the data were processed

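Per the labels, the 3 libraries are 1 group of cytosolic RNA, with replicate numbers from the labels. Per the deposited README, the main tables come from mm10 alignments and annotation M21, and 1 more table per library was computed from the reads without them. No source used here gives the aligner or quantifier. Per the file headers, expected counts, as deposited, estimate the reads of a gene. The deposited TPM and FPKM values are normalised for length and library total by the authors, per the file headers. The deposited percent of each gene's TPM held by a transcript was recomputed here from transcript TPM.

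Of 81881 gene rows, 26345 that name no gene (0.418%, 0.248% and 0.165% of counts) were left out. Counts were rounded, and edgeR 4.0.16 under R 4.3.3 gave TMM sizes. Genes with a mean of 10 or more counts were tested between libraries by chi-square, with 0.5 counts added for ratios, in Python 3.11.15 with scipy 1.17.1. On simulated counts for 13634 genes between libraries, all 100 changed 4-fold (100%) and 1.0% of those changed 1.5-fold were recovered, and 2 unchanged genes were called. The simulated counts were Poisson, with counting error as their only spread, so they give no rate of false calls for these libraries. A 1.5-fold change lies under the 2-fold gap needed for a call. A single group allows no contrast of conditions. Gene ratios were tested by exact sign-flip. Chi-square p-values cover counting error only.

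Members were taken by symbol and not by their values, but members, lists, pairs and tests were all chosen with earlier results of these data known. Per-library values are given for the Atg8 family, the highest and lowest gene of each role, genes called between libraries and genes of pairs; outside genes are the highest and lowest of each list, Sqstm1, Malat1, Neat1 and defining markers. Cntd1, Kri1 and Mir21a, which overlap members, were named after their values were seen. Alternatives were other thresholds, FPKM, posterior mean and read-derived TPM, DESeq2 1.42.0 size factors, other filters, ratios and pseudocounts, and each replicate left out. Protein-coding transcripts only, and TPM rescaled to protein-coding genes for the highest library, were chosen after seeing the data.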

Additional observations from a re-analysis of the deposited data

How the results depend on the processing

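The number of genes at 1 TPM or more in every library was 13 at a threshold of 10 TPM and lay between 26 and 40 under all other alternatives tried. The median over the 40 genes was 12.5 in FPKM, 3.06 with read-derived TPM, 25.3 with TPM rescaled to protein-coding genes and 6.16 on protein-coding transcripts only, the last chosen after seeing the data. With a ratio of 1.5 the chi-square test called 2 genes between libraries, Atg16l2 and Wipi1, beside 27.2% of all genes tested. With no ratio it called 32, beside 75.6% of all genes tested. By deposited TPM 3 genes were highest in replicate 2 and 26 in replicate 3, beside 11.3% and 66.8% of all genes tested. With TPM rescaled to protein-coding genes 3 were highest in replicate 1 and 21 in replicate 3. The shares of all genes tested were then 17.1% and 52.3%. The log2 ratio of Atg4b over Atg4a was 0.0060 with posterior mean TPM, and its sign differed between libraries. With those values 14 pairs had the same order in every library. With read-derived TPM the ratio of Atg4b over Atg4a reversed to 0.53, and the cause was not tested. Leaving out each replicate gave 39 to 39 genes at 1 TPM, a median of 7.12 to 7.90 TPM, 0 to 1 genes called, 15 to 16 pairs in the same order, 38 to 38 coding leading transcripts, and a median coding share of 94.6 to 97.5%. With replicate 1 or replicate 3 left out, 0 of the 40 were called, beside 14.4% and 4.81% of all genes tested. Depth limits Atg16l2 most, at 70 expected counts in replicate 1. No paired analysis was possible because the series holds 1 group.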

Other observations

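Exons of 14 of the 40 genes share bases with another annotated gene, and for 13 of them the other gene lies on the opposite strand. The same share over all genes was not computed. Beside Becn1 and Atg4d, Uvrag shares 1589 bases with the antisense gene Gm45187, which held 0.090 TPM on average, and Atg9a shares 1832 bases with Gm29253 on its own strand, which held 0.047 TPM. Rubcn shares 171 bases with Fyttd1 (6.13 TPM), Atg2b 383 bases with Gskip (4.87 TPM) and Atg16l2 25 bases with Fchsd2 (12.9 TPM). Levels of these genes are uncertain to the extent that reads of the shared bases were divided. These partners were named after their values were seen.

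The tables from alignments and from reads named the same leading transcript for 37 of the 40 genes, or 92.5%. The share was 90.3% over protein-coding genes that averaged at least 1 TPM and had more than 1 transcript. The other 3 of the 40 were Atg9a, Rb1cc1 and Uvrag. For Uvrag the difference was wide: coding transcripts took 92.3% of its TPM in the table from alignments and 29.4% in the table from reads, where the leading model, Uvrag-208, is annotated as a target of nonsense-mediated decay. Gabarapl2 had 82.8% of its TPM on coding transcripts from alignments and 59.7% from reads.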
